A study of Mus musculus with 1479 samples.

Results

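Immediate-early genes were measured in single cells of the mouse urinary bladder. The group comprised 10 genes chosen by name, Fos, Fosb, Jun, Junb, Jund, Egr1, Ier2, Atf3, Nr4a1 and Zfp36, out of 46517 gene rows, and all 10 were read in the 1479 cells. The cells came from adult male mice of 10 to 20 weeks and were sorted one per well for Smart-seq2, a full-length cDNA method without molecular identifiers. Of these cells, 8.72% came from Acta2GFP, 13.7% from Cspg4dsRED and 810 (54.8%) from PdgfrbGFP mice, in which a transgene makes a fluorescent protein from the control region of the named gene. Another 9.94% came from PdgfraGFP mice, in which a nuclear green fluorescent protein is made from the Pdgfra locus, and 190 (12.8%) from C57BL6 mice without a reporter, sorted with antibodies to PDGFRα and PDGFRβ. All strains had been backcrossed to C57Bl6/J and combined strains were also in use. The labels name no animal. The 8 combinations of plate and line lay on 6 plates, and the labels place each cell in 1 of 11 clusters, which the authors had drawn from the same counts. Cluster 10 (8.45% of the cells) was described by the study as vascular mural cells and cluster 5 (76 cells) as fibroblasts beneath the epithelium. The remaining clusters were described as fibroblasts, except cluster 4 (23 cells), which was left undefined. All 9 clusters outside 5 and 10 (1278 cells) are called the other fibroblasts below. Cluster 4 is counted among them, and among the fibroblast clusters, unless a fit is said to leave it out. Every cell had passed through enzymatic dissociation at body temperature with repeated pipetting, antibody staining and sorting, with elastase added for Acta2GFP mice. No undissociated tissue was measured here, so the level of these genes in the bladder itself and a change during cell isolation cannot be told apart.

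Immediate-early genes are transcribed within minutes of growth factor, calcium or stress signals, without the need for new protein synthesis, because the factors that switch them on are already present in the cell. MAP kinases act on serum response factor with its ETS partners and on CREB at the promoters, and the resulting mRNAs are short-lived. Fos and Fosb pair with Jun, Junb or Jund to form the transcription factor AP-1. Atf3 is a stress-induced factor of the ATF/CREB family, Egr1 a zinc finger factor, Nr4a1 an orphan nuclear receptor and Zfp36 (tristetraprolin) a protein that binds AU-rich elements and hastens mRNA decay. Ier2 is a nuclear protein induced by growth factors. In dissociated tissues these genes are well known to be switched on while cells are being released by enzymes at warm temperature.

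In GRCm38 with the GENCODE M21 annotation all 10 are protein-coding genes, and reads were counted over their exons. Fos lies at chr12:85473890-85477273, Fosb at chr7:19302696-19310051, Jun at chr4:95049034-95052222, Junb at chr8:84974484-84978718 and Jund at chr8:70698949-70700616. Ier2 lies at chr8:84661331-84662852, Atf3 at chr1:191170296-191218039, Nr4a1 at chr15:101254269-101274795 and Zfp36 at chr7:28376784-28380253. Exons of Jun overlap those of Junos, exons of Junb those of Prdx2, exons of Jund those of Gm11175 and exons of Zfp36 those of Gm44710, in each case on the opposite strand. The strand setting of the counting was not stated, so reads of Jun and of its antisense partner Junos cannot be told apart.

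The promoters of the genes called in cluster 10 or cluster 5 are shown, where a window was at hand, to search them for the short motifs described below. Sequence outside these windows was not searched. RefSeq windows of GRCm38 were at hand for 8 of the 10 genes, and for Egr1 and Ier2 none was. Each stretch is written 5′ to 3′ on the strand of its gene and ends at the last base before the start site, except for Zfp36, and capitals mark the matches described after them. For Atf3 and Zfp36, where another annotated transcript overlaps the window, only 30 bases around the match are given.
Fos, chr12:85473640-85473889, plus strand: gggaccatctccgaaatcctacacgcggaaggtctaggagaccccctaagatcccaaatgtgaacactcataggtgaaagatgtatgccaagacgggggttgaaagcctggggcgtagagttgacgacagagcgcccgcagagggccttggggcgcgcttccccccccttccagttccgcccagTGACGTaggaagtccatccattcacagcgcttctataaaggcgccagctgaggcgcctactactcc
Jun, chr4:95052223-95052472, minus strand: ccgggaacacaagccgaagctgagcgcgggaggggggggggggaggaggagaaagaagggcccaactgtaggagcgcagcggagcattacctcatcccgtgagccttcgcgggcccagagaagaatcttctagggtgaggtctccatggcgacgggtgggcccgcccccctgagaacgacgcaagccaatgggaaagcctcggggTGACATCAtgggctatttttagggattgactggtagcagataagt
Nr4a1, chr15:101266596-101266845, plus strand: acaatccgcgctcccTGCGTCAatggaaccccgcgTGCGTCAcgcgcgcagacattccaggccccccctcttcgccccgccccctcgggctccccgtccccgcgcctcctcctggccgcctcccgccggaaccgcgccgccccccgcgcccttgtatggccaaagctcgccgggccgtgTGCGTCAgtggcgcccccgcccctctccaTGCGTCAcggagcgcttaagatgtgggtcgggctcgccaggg
Atf3, chr1:191183334-191183363, minus strand: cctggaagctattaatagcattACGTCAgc
Zfp36, chr7:28379267-28379296, minus strand: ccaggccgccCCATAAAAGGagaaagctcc

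The capitals in Fos and Atf3 mark TGACGT, the first letters of the cAMP response element TGACGTCA, on either strand. It was found in 2 of the 8 windows and in 6.46% of the 32817 mouse promoter windows of the same 250 bases. In Nr4a1 they mark 4 copies of the related TGACGCA, read here on the opposite strand, which was found in 2 of the 8 windows (Fosb and Nr4a1) and in 1.74% of all windows. The AP-1-like TGACATCA of Jun was found in 1 of 8 and in 2.93% of all windows, and the CArG box of Zfp36, the letters bound by serum response factor, in 1 of 8 and 1.47%. The AP-1 site TGANTCA, present in 6.75% of all windows, and the full TGACGTCA, present in 1.55%, were found in 0 of the 8 windows. The SP1 site GGGCGG was found in 6 of 8 and in 32.7% of all windows, the EGR site GCGNGGGCG in 3 of 8 and 4.70%, and TATAAA, searched on the strand of the gene, in Fos alone and in 7.60%. The other motifs were searched on both strands and partly chosen after the sequences had been read. TGACGCA and TGACATCA do not overlap TGACGT, whereas a full TGACGTCA holds it and the SP1 and EGR sites can overlap each other. A match describes letters in these windows and is not a measured binding site.

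Total reads per cell ran from 50276 to 1446059 with a median of 214893, and cluster 10 cells were shallower (median 130406) than cluster 5 cells (261653) and the other fibroblasts (222513). Mural markers summed to between 8133 and 12820 reads per 500000 endogenous reads in the lines of cluster 10, against 64.5 to 169.6 in the other fibroblasts, whereas fibroblast markers summed to 509 to 2218 against 15000 to 21520. All 9 mural and all 8 fibroblast markers had reads in both classes. Tnc, Bmp5 and Bmp7 together reached 631 to 1759 in cluster 5 and 3.37 to 9.13 in the other fibroblasts. The endothelial list stood at 226.2 in the cluster 10 cells of C57BL6, where Emcn averaged 216.3 over 3 cells, and at 12.1 in those of Acta2GFP. The immune list reached at most 35.5 in any line and class, with Cd3e at 0 in all classes, the urothelial list at most 68.3 and the glial list at most 21.1.

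The 10 genes together took up 1.22% ± 0.183 of the endogenous reads in the 9 other fibroblast clusters (mean over lines ± SD, n = 5 lines), 2.79% ± 1.10 in cluster 10 (n = 4 lines) and 0.354% ± 0.160 in cluster 5 (n = 4 lines). The spread over cells was wider than that over lines. In cluster 10 the summed share had a median of 3.08% with the lowest cell at 0.0336% and the highest at 8.52%, in cluster 5 a median of 0.199% with cells from 0.0310% to 1.33%, and in the other fibroblasts a median of 1.04% with cells from 0.00808% to 5.96%. Per kilobase of exon, Fos had the highest level of the 10 in all 3 classes, with 1421 reads per 500000 in cluster 10, 648 in the other fibroblasts and 147.8 in cluster 5. Behind Fos, the order of the levels per kilobase differed between the classes. In the other fibroblasts Junb (356), Ier2 (347), Egr1 (261.6) and Nr4a1 (250.8) followed, in cluster 10 Nr4a1 (880), Junb (782), Zfp36 (492) and Atf3 (386), and in cluster 5 Egr1 (117.3), Ier2 (101.6) and Junb (95.7). Fosb was the lowest per kilobase in every class, at 42.6, 23.3 and 3.29.

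**Figure D1:**
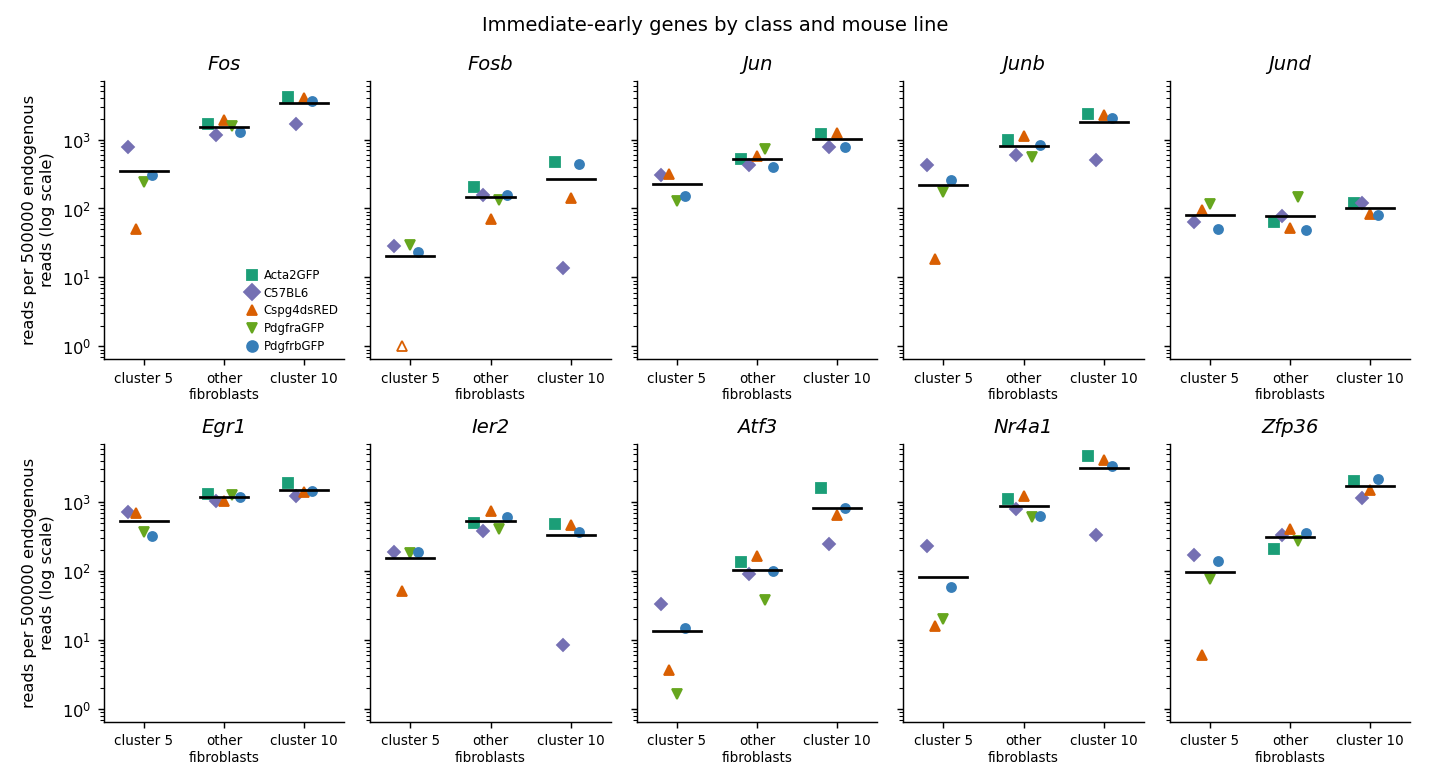
Level of each immediate-early gene in reads per 500000 endogenous reads (log scale) in cluster 5, the other fibroblast clusters and cluster 10. Each point is the mean over the cells of 1 mouse line, the bar is the mean over lines and the open triangle is a line with no Fosb read, drawn at 1. For 9 of the genes the cluster 5 points lie below those of the other fibroblasts within each line, Zfp36 and Atf3 are separated between cluster 10 and the fibroblasts, and Jund overlaps in all 3 classes.

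By cluster, the summed share was highest in cluster 10, followed by cluster 4 (2.08%), 11 (1.72%), 9 (1.69%), 6 (1.51%), 8 (1.43%), 1 (1.06%), 3 (0.970%), 2 (0.763%), 7 (0.627%) and 5, each as a mean over its lines with at least 3 cells. Compared over the lines that both clusters shared, the gap between neighbours exceeded 1 SD at 3 of the 10 steps. These were cluster 10 over 4 (1.01 percentage points ± 0.938, n = 2 lines), 8 over 1 (0.500 ± 0.386, n = 4 lines) and 7 over 5 (0.227 ± 0.197, n = 4 lines). The remaining neighbours did not differ beyond their spread or shared only 1 line, so no order is given among clusters 4, 11, 9, 6 and 8, nor among clusters 1, 3, 2 and 7. By mean over lines, cluster 5 was last for 9 of the 10 genes, the exception being Jund. Over shared lines, its gap to the cluster above exceeded 1 SD only for Fos, Atf3 and Zfp36. How many of all genes were last in cluster 5 was not counted. Cluster 10 had the highest mean for Fos, Jun, Junb, Atf3, Nr4a1 and Zfp36. Over the 2 lines shared with the next cluster, this gap exceeded 1 SD for Fos, Junb, Nr4a1 and Zfp36, but not for Jun and Atf3. Egr1 and Ier2 had their highest mean in cluster 4, Fosb in cluster 11 and Jund in cluster 8. For Egr1 and Ier2 only 1 line was shared with the next cluster, and for Fosb and Jund the gap lay within 1 SD. Ier2 stood at rank 9 of 11 in cluster 10, within 1 SD of both neighbours.

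**Figure D2:**
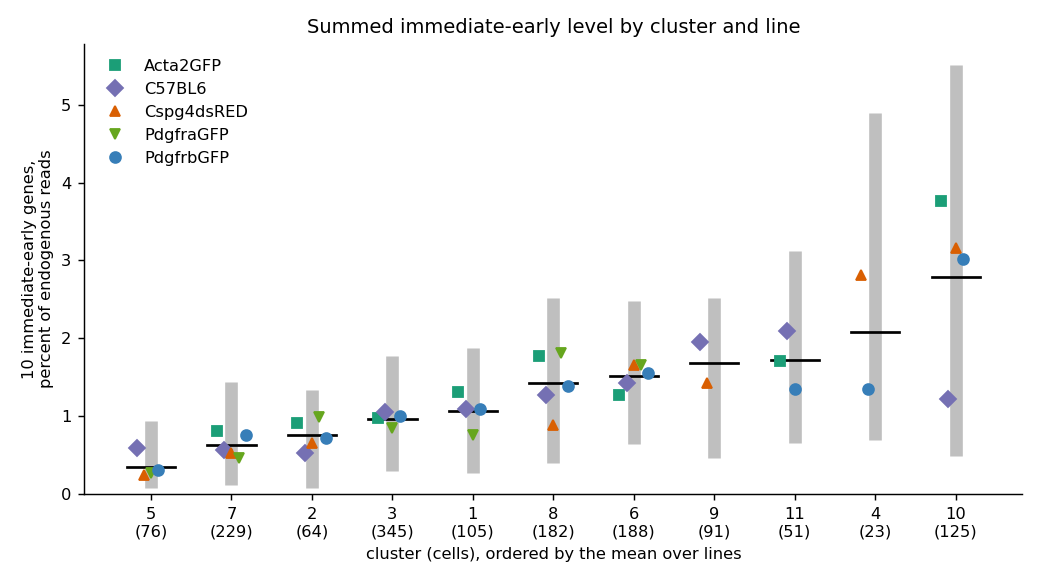
Summed share of the 10 immediate-early genes in percent of endogenous reads for the 11 clusters, ordered by their mean over lines (black bar). Points are means of mouse lines with at least 3 cells, grey bars span the 10th to the 90th percentile of all cells of the cluster and cell numbers are in parentheses. Cluster 5 lies lowest with 0.354% and cluster 10 highest with 2.79%, where the C57BL6 point (3 cells) stands at 1.22% and the other 3 lines between 3.02% and 3.77%.

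Cluster 10 was compared with the pooled fibroblast clusters to learn which immediate-early genes differed between mural cells and fibroblasts of the same mouse lines. Fos stood at 4142 reads per 500000 in the cluster 10 cells of Acta2GFP, 1697 in C57BL6, 3946 in Cspg4dsRED and 3583 in PdgfrbGFP mice, against 1680, 1142, 1873 and 1236 in the fibroblasts of the same lines. It was higher in cluster 10 in 4 of 4 lines, but the C57BL6 mural value lay inside the range of the fibroblast values. The fitted log2 difference was 1.00 ± 0.20 (SE, adjusted p = 0.00364, edgeR quasi-likelihood test on sums per line). Zfp36, the mRNA decay factor, stood at 1998, 1157, 1505 and 2167 in cluster 10, in the same order of lines. In the fibroblasts it was 9.61-fold lower in Acta2GFP mice and stood at 319.9, 395 and 349 in the other 3 lines. The groups did not overlap, each line showed at least a 3.62-fold higher mean, and the log2 difference was 2.16 ± 0.29 (edgeR adjusted p = 6.63e-05). For Atf3 the levels were 1597, 243.8, 663 and 824 against 134.8, 85.8, 161.2 and 96.8. These did not overlap either, and the log2 difference was 2.32 ± 0.43 (edgeR adjusted p = 0.00198). Jun, the main partner of Fos in AP-1, stood at 1199, 788, 1252 and 779 against 523, 412, 567 and 391.5, without overlap, with a log2 difference of 0.98 ± 0.29 (edgeR adjusted p = 0.0476). The call of Jun was lost on leaving out Acta2GFP, Cspg4dsRED or PdgfrbGFP (edgeR adjusted p = 0.0826, 0.167 and 0.157), at a log2 difference of 0.96 to 1.01.

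These 4 of the 10 genes were called higher in cluster 10, where 2.27% of the 16092 tested genes were called higher and 4.11% lower. The median log2 difference was 0.85 over the 10 genes and -0.93 over all tested genes. That the middle of all tested genes lay below 0 bears on every value of this comparison, and the reason was not tested. Nr4a1 stood at 4624, 330.9, 4082 and 3314 in cluster 10 against 1115, 761, 1209 and 612 in the fibroblasts, so it was higher in 3 lines and lower in the 3 cells of C57BL6. Its log2 difference of 1.22 ± 0.39 did not pass the test (edgeR adjusted p = 0.0602), and without C57BL6 it was 1.85 (edgeR adjusted p = 0.00481). Junb followed the same lines, with a log2 difference of 0.72 ± 0.28 (edgeR adjusted p = 0.12), and so did Fosb, with 0.40 ± 0.72 (edgeR adjusted p = 0.832). Without C57BL6 both passed, at 1.04 (edgeR adjusted p = 0.0343) and 1.21 (edgeR adjusted p = 0.0397), which made 7 of 10 genes called, beside 6.80% of all tested genes in either direction (6.38% with all lines). Egr1 differed by 0.32 ± 0.23 and Jund by 0.60 ± 0.68 on the log2 scale, both higher in 4 of 4 lines and neither past the test (edgeR adjusted p = 0.48 and 0.703). Over the 4 lines the Jund groups did not overlap, so a lack of overlap was not confined to called genes. The share of all tested genes without overlap was not counted. Ier2 was the exception in sign. It stood at 482, 8.38, 471 and 374 in cluster 10 and at 502, 362, 728 and 585 in the fibroblasts, lower in 4 of 4 lines, with a log2 difference of -1.42 ± 0.64 (edgeR adjusted p = 0.19). Without Acta2GFP it was called lower (-1.95, edgeR adjusted p = 0.00661), and so it was without a filter on low counts.

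At equal depth, with every cell thinned to 50000 reads, Atf3 (2.28 ± 0.48, edgeR adjusted p = 0.00246) and Zfp36 (2.14 ± 0.36, edgeR adjusted p = 0.000246) kept their calls, whereas Fos (0.83 ± 0.27, edgeR adjusted p = 0.0578) and Jun (0.77 ± 0.35, edgeR adjusted p = 0.19) did not. In this fit 8.41% of all tested genes were called in either direction. Cluster 10 cells held 70.9 ± 22.1 endogenous reads per ERCC spike-in read against 122.4 ± 62.99 in the other fibroblasts (mean ± SD of line medians, n = 4 and 5 lines). With library sizes set to the spike-ins, Zfp36 remained past the test (log2 1.44, edgeR adjusted p = 0.0404), while Fos was at 0.30 (edgeR adjusted p = 0.549), Atf3 at 1.62 (edgeR adjusted p = 0.0876), and Egr1 (-0.40), Fosb (-0.17) and Jund (-0.12) turned to the other side of 0. The median mitochondrial share (1.80% in cluster 10, 1.18% in the fibroblasts outside cluster 5) and the median number of genes detected (3188 and 4970) moved with this comparison, and their part in it was not tested. Since clusters and tests used the same counts, the p-values are no independent evidence for a difference between the clusters. The edgeR fit estimates the spread of each gene partly from the other tested genes. Its p-values and SEs are thus no measure of the spread of a single gene over 4 lines. They also do not state that a difference was repeated in each line.

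**Figure D3:**
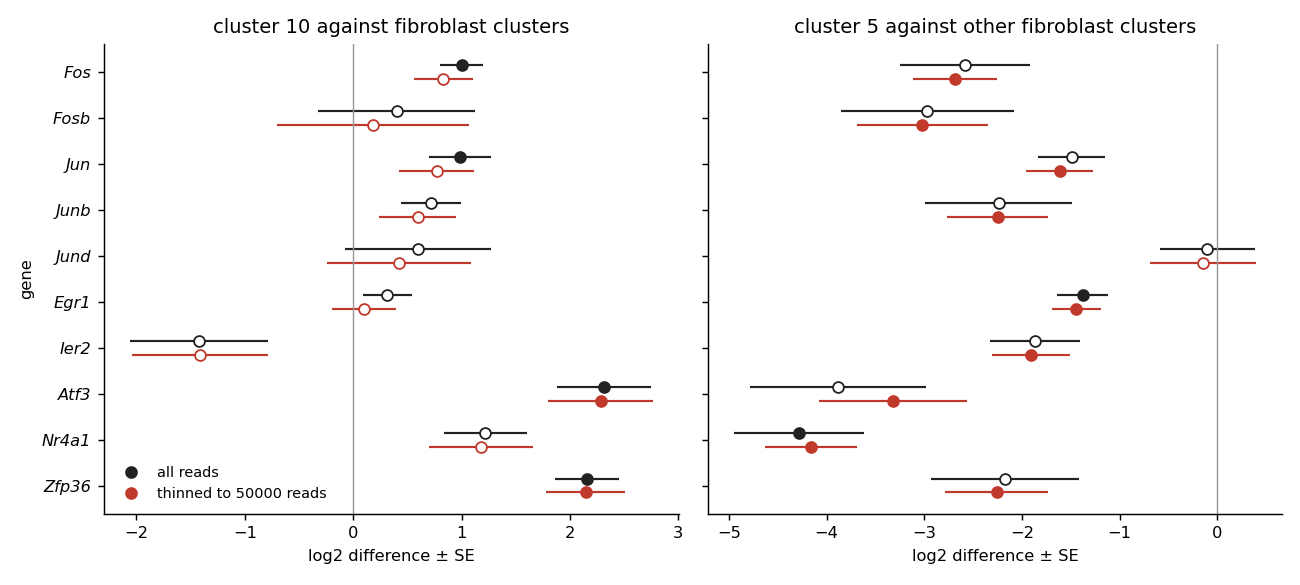
Log2 difference ± SE of the 10 genes in cluster 10 against the fibroblast clusters (left) and in cluster 5 against the other fibroblast clusters (right), fitted with edgeR on sums of all reads per line (black) or of cells thinned to 50000 reads (red). Filled points passed an adjusted p of 0.05 over all tested genes. On the left 4 black and 2 red points are filled, and on the right 2 black and 9 red points, where Jund alone stays near 0.

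In cluster 5, the fibroblasts beneath the epithelium, the line means of the 9 genes other than Jund lay below those of the other fibroblasts in each line, and 2 of them passed the test. Nr4a1 averaged 234.1 reads per 500000 in the C57BL6 cells of cluster 5, 16.2 in those of Cspg4dsRED, 20.5 for PdgfraGFP and 58.4 for PdgfrbGFP, against 807, 1236, 604 and 639 in the other fibroblasts. The groups did not overlap and the log2 difference was -4.28 ± 0.67 (edgeR adjusted p = 0.00892). Egr1 stood at 720, 687, 372 and 324.8 against 1029, 1051, 1265 and 1184, again without overlap, with a log2 difference of -1.38 ± 0.26 (edgeR adjusted p = 0.0276). Without Cspg4dsRED its call was lost (-1.44, edgeR adjusted p = 0.148). The call of Egr1 was also lost with DESeq2 (-1.23, DESeq2 adjusted p = 0.244) and without the line block (-1.25, edgeR adjusted p = 0.0552). These 2 of the 10 genes were called lower, where 0.545% of the 16145 tested genes were called lower and 0.39% higher, and Nr4a1 remained past the test in 15 of 15 settings tried. Fos stood at 786, 50.2, 245.1 and 309.3 against 1173, 1914, 1567 and 1282, so the highest cluster 5 line was C57BL6 and the lowest was Cspg4dsRED, of which only 3 cells belonged to the cluster. Its log2 difference of -2.58 ± 0.67 missed the threshold (edgeR adjusted p = 0.137).

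The same held for Atf3 (-3.88 ± 0.90, edgeR adjusted p = 0.0856), Fosb (-2.97 ± 0.88, edgeR adjusted p = 0.182), Junb (-2.24 ± 0.75, edgeR adjusted p = 0.219), Zfp36 (-2.17 ± 0.76, edgeR adjusted p = 0.229), Ier2 (-1.86 ± 0.46, edgeR adjusted p = 0.117) and Jun (-1.49 ± 0.34, edgeR adjusted p = 0.0815). All 9 were lower in cluster 5 in 4 of 4 lines, their line means did not overlap with those of the other fibroblasts, and Fosb had no read in the 3 Cspg4dsRED cells. How many of all tested genes showed the same pattern was not counted, so it does not set these genes apart. Jund, the AP-1 partner that is made without stimulation in most cells, had a log2 difference of -0.11 ± 0.49 (edgeR adjusted p = 0.965), higher in 2 and lower in 2 lines, and its sign changed with the scaling (0.036 with median-of-ratios scaling). The median log2 difference was -2.21 over the 10 genes and -0.77 over all 16145 tested genes, which bears on every value of this comparison as well. With the median gene set to 0, Nr4a1 alone of the 10 was called (-3.52, edgeR adjusted p = 0.0217). Egr1 was then at -0.62 (edgeR adjusted p = 0.33). With every cell thinned to 50000 reads the log2 differences of the 9 genes lay between -4.16 (Nr4a1) and -1.45 (Egr1), and 9 of the 10 were called, with edgeR adjusted p = 3.63e-05 for Fos and, as the highest of the 9, 0.00754 for Zfp36. Leaving out C57BL6 also gave 9 calls, and counting each plate and line as a unit gave 8. The share of all tested genes called in either direction was 0.935% with all reads, 2.69% with thinned cells, 1.46% without C57BL6 and 3.82% per plate and line. In contrast to cluster 10, cluster 5 kept its lower level on the spike-in scale, with a ratio of the summed member reads per ERCC read of 0.256 to the other fibroblasts of the same lines, against 0.298 per endogenous read. Member reads per ERCC read were 0.390 ± 0.470 in cluster 5 (n = 4 lines) and 1.29 ± 0.496 in the other fibroblasts (n = 5 lines). The SD over lines in cluster 5 was thus above its mean. Cluster 5 cells had a median mitochondrial share of 1.53% against 1.18% in the other fibroblasts and a median of 5246 genes detected against 4970, and the part of these in the difference was not tested.

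The 6 fibroblast clusters with cells in 4 shared lines, numbers 1, 2, 3, 6, 7 and 8, were tested jointly for any difference. Some sums rested on few cells, such as 3 of Acta2GFP in cluster 2, 5 of PdgfraGFP in cluster 1 and 6 of Acta2GFP in cluster 6. Cluster 2 was the shallowest of the 6, with a median of 113371 reads, and had the highest median mitochondrial share (2.34%). The part of this in the test was not tested. Egr1 (range of fitted levels 1.09 on the log2 scale, edgeR adjusted p = 0.0145), Fos (1.22, edgeR adjusted p = 0.0183) and Junb (1.72, edgeR adjusted p = 0.0261) were called, 3 of 10 genes against 2.05% of the 14151 genes tested. Fos was highest in cluster 6 with 1524 in Acta2GFP, 1731 in C57BL6, 2362 in PdgfraGFP and 1548 in PdgfrbGFP mice. It was lowest in cluster 7 with 1184, 705, 467 and 822, without overlap between the 2 clusters. Since they were picked as highest and lowest from these same means, the shared direction and the lack of overlap are partly set by that choice. Jund, which was not called, also had its highest cluster above its lowest in 4 of 4 lines. Junb was highest in cluster 6 (1035 ± 203.1) and lowest in cluster 2 (371 ± 185.3), and Egr1 highest in cluster 8 (1638 ± 323.7) and lowest in cluster 7 (763 ± 112.8, SD, n = 4 lines). Nr4a1 had the widest range of the 10, 2.36 on the log2 scale, from 1159 ± 110.3 in cluster 6 to 257.1 ± 122.6 in cluster 7, without passing the test (edgeR adjusted p = 0.0692). Thinned cells gave 6 calls, adding Fosb, Ier2 and Nr4a1 to the 3, beside 2.19% of all tested genes. Without C57BL6 or without PdgfrbGFP edgeR called 0 of the 10, with 5 and 6 genes at an unadjusted p under 0.05, and these fits called 0.205% and 0.141% of all genes. DESeq2 on all 4 lines called 3 (Junb, Egr1 and Nr4a1) beside 7.77% of all genes. The call of Fos was lost without PdgfraGFP as well (edgeR adjusted p = 0.112) and that of Junb without Acta2GFP (edgeR adjusted p = 0.0819).

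The high values of clusters 4, 9 and 11 came from few lines. Cluster 9 held 85 of its 91 cells in Cspg4dsRED mice and cluster 11 43 of its 51 in Acta2GFP mice. Within the Cspg4dsRED cells of plate bladder_352s, cluster 4 had a summed share of 2.83% (16 cells) and cluster 9 of 1.43% (85 cells), against 0.529% in cluster 7 (11 cells) and 0.505% in cluster 8 (10 cells). Nr4a1 in these 4 clusters stood at 3662, 1067, 295.7 and 97.3. Within the Acta2GFP cells of plate bladder_515s, cluster 11 reached 1.71% (43 cells), close to cluster 8 with 1.78% (11 cells) and above cluster 3 with 0.975% (37 cells). In the other lines with at least 3 cells, these clusters held 3 to 5 cells each. In C57BL6 mice cluster 9 (1.95%) and cluster 11 (2.10%) lay above clusters 7 (0.568%) and 8 (1.28%). In PdgfrbGFP mice cluster 4 (1.35%) and cluster 11 (1.36%) lay above cluster 7 (0.757%) but not above cluster 8 (1.39%). These differences were not tested.

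At 50000 reads per cell the share of cells with a read separated the genes into those read almost everywhere and those that were not. Fos was read in 100% of the cells of cluster 10 (exact 95% interval from 97.1 to 100%), in 75 of 76 cells of cluster 5 (98.7%, 92.9 to 100%) and in 1266 of 1272 other fibroblasts (99.5%). Egr1 had no read in 4.00% of cluster 10, 3.95% of cluster 5 and 0.786% of the other fibroblast cells, and Junb was read in 98.4%, 92.1% and 98.1%. The reads per cell of Fos differed more, with a median of 374 reads in cluster 10, 12 in cluster 5, and the lowest median among the remaining clusters at 50.5 in cluster 7. Atf3 was read in 84.8% of cluster 10 cells (77.3 to 90.6%), 39.5% of cluster 5 cells (28.4 to 51.4%) and 59.7% of the other fibroblasts (56.9 to 62.4%), or 88.8%, 65.8% and 81.4% before thinning. Its median was 42 reads in cluster 10 and at most 2 in every other cluster. Fosb was read in 67.2% of cluster 10 (58.2 to 75.3%), 42.1% of cluster 5 and 71.6% of other fibroblast cells (69.1 to 74.1%). Jund was read in 58.4% (49.2 to 67.1%), 65.8% and 70.8% (68.2 to 73.2%). For both genes the cluster 10 share lay below that of the other fibroblasts although the mean level was above it. The intervals of these classes overlapped for Fosb. Intervals cover counting error only, since reads without molecular identifiers and cells of 1 mouse are not independent.

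The abundant genes stayed near or below 1 read per exon base, and the authors' methods include a step that removed reads with samtools. Fos reached 1.05 reads per exon base in its highest cell, Ier2 1.09 and Junb 0.983, and no member exceeded these. Fos was above 0.5 reads per base in 20.3% of all cells and in 41.6% of cluster 10 cells, Nr4a1 in 4.87% and 14.4%, and Junb in 6.09% and 8.00%. Ier2 went the other way, with 5.81% of all cells and 0% of cluster 10, and Fosb, Jund and Zfp36 were there in 0 of 1479 cells. In clusters 1, 3, 6, 7 and 8 the mean Fos level was 1456 reads per 500000 in the cells with up to 171674 endogenous reads and 1111 in those above 337226. Over the same cells Zfp36 went from 263.6 to 404 and Fosb from 121.3 to 189.1. The part of this in the comparisons was not tested.

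Plates and lines were compared at equal cluster makeup, with clusters 1, 3, 6, 7 and 8 given equal weight, and without a test. PdgfrbGFP cells lay on plates bladder_074s, bladder_515s and bladder_881s and Cspg4dsRED cells on bladder_352s and bladder_689s. Each other line lay on 1 plate, so for it the line, the sort and the plate cannot be told apart. The summed share ranged 1.30-fold, from 0.951% in PdgfrbGFP cells of plate bladder_515s to 1.23% in PdgfrbGFP cells of plate bladder_074s, over 6 combinations. Both ends were PdgfrbGFP cells, so the whole range lay within 1 line, and its cause was not tested. Fos ranged 1.34-fold from 1199 to 1609 reads per 500000. Jund (5.02-fold, lowest at 27.3) and Atf3 (4.60-fold, lowest at 36.3) ranged most. The PdgfraGFP cells of plate bladder_689s had the highest Fos, Jun and Jund and the lowest Junb and Atf3 of the 6. In clusters 7 and 8 alone, the Cspg4dsRED cells of plate bladder_352s were lowest for each of the 10 genes, with a summed share of 0.517% (21 cells) against 0.890% to 1.30% in the other 6 combinations.

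On plate bladder_515s, Acta2GFP cells (elastase added) and PdgfrbGFP cells shared 5 fibroblast clusters and cluster 10. The summed share was higher in Acta2GFP cells in 5 of 5 fibroblast clusters, 1.18-fold to 1.46-fold, and lower in cluster 10, at 3.77% (12 cells) against 4.14% (21 cells). Nr4a1 (1.47-fold to 3.06-fold), Jun, Fosb, Jund and Egr1 were higher in Acta2GFP cells in all 5 clusters, Fos in 3 and Zfp36 in 1. In cluster 3, the largest shared cluster with 37 and 78 cells, Nr4a1 had 777 reads per 500000 pooled reads in Acta2GFP (exact Poisson 95% interval 762 to 792) and 406 (397 to 415) in PdgfrbGFP cells, and Fos 1192 (1173 to 1211) and 1379 (1362 to 1396). The intervals cover counting error only, and no replicate of this plate was measured. Elastase, the reporter, the position on the plate and the mouse cannot be told apart, since all Acta2GFP fibroblasts lay in rows A to H and 92.99% of the PdgfrbGFP fibroblasts outside cluster 5 in rows I to P.

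Within a plate and line, cluster 10 exceeded the fibroblasts in 6 of 7 combinations. The summed share reached 4.14% against 0.936% in PdgfrbGFP cells of plate bladder_515s and 3.66% against 1.42% in Cspg4dsRED cells of plate bladder_352s. In Cspg4dsRED cells of plate bladder_689s it was 1.66% (16 cells) against 1.68% in only 10 fibroblasts. Atf3 and Zfp36 were higher in cluster 10 in 7 of 7, Atf3 between 1.61-fold and 17.8-fold and Zfp36 between 1.31-fold and 12.9-fold. Ier2 was lower in 7 of 7, between 0.0232 and 0.959 of the fibroblast level. Cluster 5 lay below the other fibroblasts in 5 of 5 combinations, at 0.213 to 0.583 of their summed share.

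**Figure D4:**
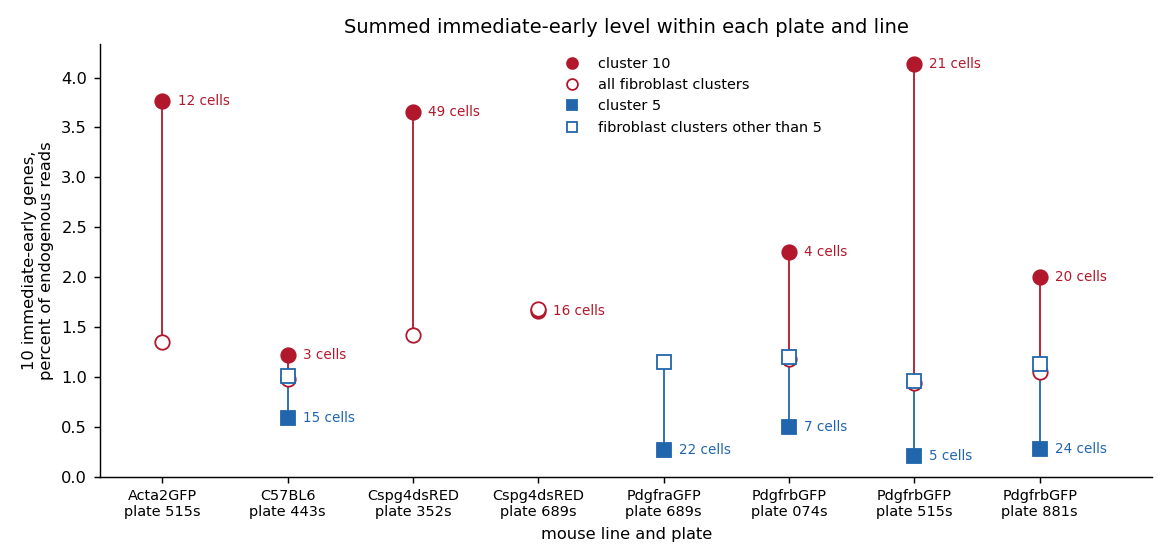
Summed share of the 10 immediate-early genes in percent of endogenous reads for each mouse line and plate with at least 3 cells of cluster 10 (red circles) or cluster 5 (blue squares). Filled symbols are means over the cells of that cluster, open symbols those of the fibroblasts it was compared with, and cell numbers stand beside the filled symbols. Cluster 10 lies above the fibroblasts in 6 of 7 combinations, and cluster 5 below in 5 of 5.

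The genes also varied together from cell to cell within a cluster, plate and line. Over 26 groups of at least 20 cells (1173 cells thinned to 50000 reads), the Pearson correlation of log2(reads + 1), averaged over groups, was above 0 for 45 of 45 pairs with a mean of 0.358. It was highest for Fos and Egr1 (0.671), Junb and Egr1 (0.653) and Fos and Junb (0.593). Jund was the least connected, with a mean of 0.127 to the other 9 genes, followed by Atf3 with 0.279, and Egr1 (0.468) and Fos (0.459) were the most connected. The mean over pairs ran from 0.0900 in cluster 5 cells of PdgfraGFP mice on plate bladder_689s (22 cells) to 0.634 in cluster 10 cells of PdgfrbGFP mice on plate bladder_515s (21 cells). Clusters accounted for 23.7% of the variance of Fos over cells, 26.3% of that of Nr4a1 and 1.28% of that of Jund, and cluster, plate and line jointly for 31.4%, 35.5% and 12.5%, so most of the variance lay among cells of the same group. Within groups, the mean Spearman correlation of the summed share over 26 groups was -0.12 with genes detected (single groups from -0.574 to 0.36), -0.0885 with the mitochondrial share (-0.544 to 0.25), 0.0466 with the ERCC share (-0.575 to 0.361) and -0.0581 with endogenous reads (-0.4 to 0.432). Groups of both signs occurred for each measure. These are descriptions over cells that share plates and depth.

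**Figure D5:**
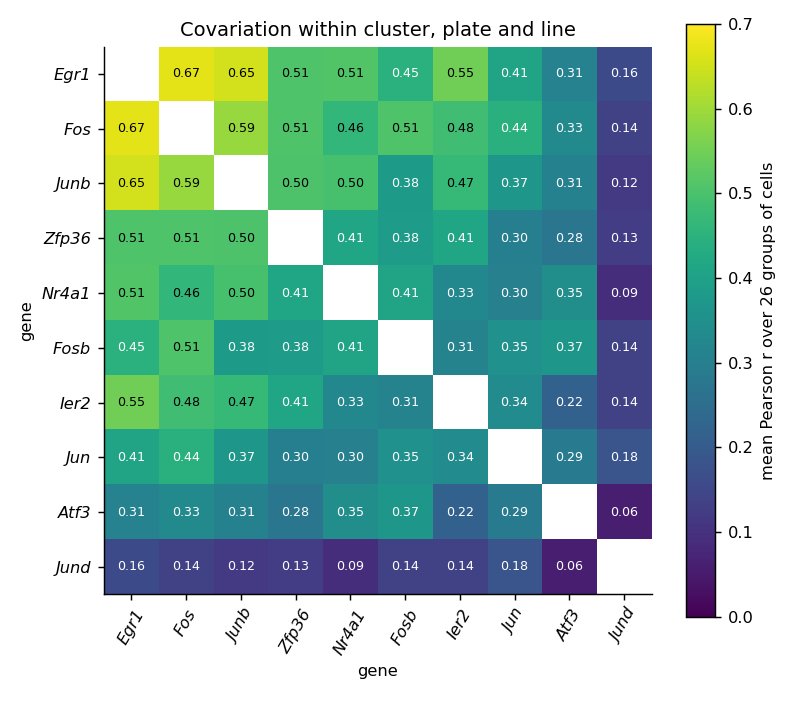
Mean Pearson correlation of log2(reads + 1) between pairs of immediate-early genes, averaged over 26 groups of cells of the same cluster, plate and line after thinning to 50000 reads. Genes are ordered by their mean correlation with the other 9. Egr1, Fos and Junb form the most correlated corner with 0.593 to 0.671, and the Jund row stays between 0.0580 and 0.185.

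Among the 6052 genes read in at least 20% of the thinned cells, the non-members most like the mean of the 10 were ranked over the same 26 groups. Junos (0.538), the antisense partner of Jun whose reads cannot be told apart from those of Jun, came first, followed by Btg2 (0.512), an antiproliferative gene, the heat shock gene Hspa1a (0.478) and Gm20481 (0.471), which overlaps Hspa1a on the other strand. Dusp1 (0.444), a phosphatase that switches off MAP kinases, Ccn1 (0.373), a secreted matrix protein, Ppp1r15a (0.327), which directs dephosphorylation of eIF2α, the cytokine inhibitor Socs3 (0.322) and the cyclin gene Ccnl1 (0.317) were also among the 10 highest. Hspa1a has a nearly identical copy, Hspa1b, so its reads are uncertain. Jund (0.327) ranked below 8 of the 10 non-members although its own reads entered the mean. At the other end were Rps6ka4 (-0.155), Fam92a (-0.152), the fibronectin gene Fn1 (-0.141) and Sparc (-0.13).

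A wider list of 71 genes of the same response was compared in both tests, of which 69 were tested. In cluster 10 edgeR called 7 higher and 0 lower (11 and 3 at an unadjusted p under 0.05), beside 2.27% of all tested genes higher and 4.11% lower, with a median log2 difference of 0.03 against -0.93 for all tested genes. Levels given below for the other fibroblasts leave out cluster 5 and cover 5 lines. The log2 differences of cluster 10 were fitted against all fibroblast clusters, with cluster 5, over 4 lines. Ppp1r15a was at 1356 ± 604 reads per 500000 in cluster 10 and 155.6 ± 68.9 in the other fibroblasts (log2 2.73 ± 0.31, edgeR adjusted p = 8.2e-06). Id2, an inhibitor of helix-loop-helix factors, was at 46.8 ± 35.4 in the other fibroblasts and higher in cluster 10 (log2 2.61 ± 0.67, edgeR adjusted p = 0.0242), and Fosl2, a further Fos relative, was at 207.2 ± 53.4 and 36.8 ± 12.2 (2.36 ± 0.63, edgeR adjusted p = 0.031). The others called were Socs3, Gadd45b and Gadd45g among 19 feedback regulators and Errfi1 among 11 other early genes. Dusp1 was at 1016 ± 151.8 and 888 ± 230.1 and did not pass (0.07 ± 0.26, edgeR adjusted p = 0.927). In cluster 5 edgeR called 2 lower and 0 higher (21 and 1 at an unadjusted p under 0.05), beside 0.545% of all tested genes lower and 0.39% higher, with a median log2 difference of -1.31 against -0.77. These were Dusp1 at 135.2 ± 112.8 (-3.15 ± 0.56, edgeR adjusted p = 0.0205) and Errfi1, an inhibitor of the EGF receptor, at 3.45 ± 2.99 against 91.7 ± 30.5 (-5.48 ± 0.92, edgeR adjusted p = 0.014). Among the 14 upstream kinases and factors, such as Srf, Elk1 and Creb1, 0 were called in either direction by edgeR in either test, with 0 at an unadjusted p under 0.05 in cluster 10 and 1 in cluster 5 (Map3k8, named after its value was seen). Among the 6 fibroblast clusters 3 of the 67 genes tested (Btg2, Arc and Errfi1) were called, beside 2.05% of all genes.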

How the data were processed

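Single bladder cells were profiled by Smart-seq2, and the authors deposited 1 table of raw read counts per gene and cell (trim galore, TopHat2 on GRCm38, removal of reads called doublets with samtools, featureCounts, filters on reads, genes and spike-in or mitochondrial share). Annotation release and strand are not given in the sources used here. Levels are reads per 500000 endogenous reads, averaged over cells and then over lines. Thinning drew 50000 reads per cell, leaving out 6 cells. Shares have exact 95% Clopper-Pearson intervals. Counts were summed per line (at least 3 cells per class) and tested with edgeR 4.0.16 in R 4.3.3 (TMM, filterByExpr, line as block, quasi-likelihood, Benjamini-Hochberg over all genes, called under 0.05), checked on simulated counts. Treating lines as independent is an assumption. DESeq2 1.42.0, limma 3.58.1 and Python 3.11.15 with scipy 1.17.1 served for alternatives and descriptions. The 10 genes, the wider list and the rule for named genes (all 10, the 10 most similar non-members, up to 3 of the wider list per direction) were chosen with earlier results of these data known. Of the most similar non-members, 1 is not reported here. Columns without a sample numbered 0.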

Additional observations from a re-analysis of the deposited data

Results flagged for a closer look

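Over 39 sets of 4 or 5 line means, 3 held a line far from the others by Dixon's test at 95%, where chance gives about 1 in 20 sets. The C57BL6 line stood at 499 reads per 500000 for Junb in cluster 10, against 2086 or more in the other 3 lines, and rested on 3 cells. The Cspg4dsRED line stood at 51.3 for Ier2 in cluster 5, against 186.3 to 192.1 in the other 3 lines, and rested on 3 cells as well. The C57BL6 line had a summed share of 0.591% of reads in cluster 5 (15 cells), against 0.249% to 0.306% in the other 3 lines.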

How the results depend on the processing

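Of 430 comparisons of a single gene under an alternative with the value reported, 310 kept their direction and side of the threshold, 80 passed the threshold newly, 31 no longer passed and 9 changed sign. The number of the 10 genes called higher in cluster 10 was 4, and it was 2 with DESeq2, 7 with limma-voom, 2 with thinned cells, 1 with ERCC library sizes, 7 with the median gene set to 0, and 3 to 7 on leaving out each line. In either direction, DESeq2 called 2997 of all 15156 tested genes and limma-voom 1706 of 16092. Thinned cells gave 1182 of 14050, ERCC library sizes 1332 of 16092 and the median gene set to 0 gave 845 of 16092. Leaving out a line gave between 469 of 15544 and 1046 of 15383. Zfp36 passed in all 17 settings and Atf3 in 16. The number called lower in cluster 5 was 2, and it was 9 without a filter on low counts, 4 with DESeq2, 9 with thinned cells, 5 with ERCC library sizes, 8 with sums per plate and line, 1 with the median gene set to 0, 6 with cells of 80000 to 200000 reads, and 2 to 9 on leaving out each line. Among the 6 fibroblast clusters it was 3, and it was 8 with limma-voom, 6 with thinned cells, 6 with sums per plate and line, and 0 to 4 on leaving out each line. Signs changed in cluster 10 for Fosb (-0.17), Jund (-0.12) and Egr1 (-0.40) with ERCC library sizes and for Fosb on leaving out Acta2GFP (-0.030) or PdgfrbGFP (-0.016), against 1.21 without C57BL6. In cluster 5 they changed for Jund with median-of-ratios scaling (0.036), DESeq2 (0.036), the median gene set to 0 (0.66) and without PdgfraGFP (0.031), against -0.20 without Cspg4dsRED. The ratio of the summed level in cluster 10 to the other fibroblasts was 2.26 per endogenous read and 1.29 per ERCC read, and the mean correlation of 0.358 was 0.367 at 100000 reads and 0.339 as Spearman. Over all genes, 1027 were called in cluster 10, and 469 to 2997 under the alternatives. In cluster 5 the share of tested genes called was 0.935%, and 0.758% (without PdgfraGFP) to 9.77% (DESeq2), and among the 6 clusters 2.05%, and 0.141% (without PdgfrbGFP) to 7.77% (DESeq2). The causes were not tested. The restriction to cells of 80000 to 200000 reads and the fits without cluster 5 (3 calls in cluster 10) or without clusters 4, 9 and 11 (6 calls) were chosen after seeing the data. The cluster 10 cells of C57BL6 and the cluster 5 cells of Cspg4dsRED numbered 3 each, which limits both tests.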
